A study of Mus musculus with 6 samples.

Results

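The genes described here are 46 genes of the mitotic spindle and of chromosome segregation, a list drawn up by function and matched by gene symbol, out of 18182 genes in the files. All 46 were listed in the files, and all 46 passed the filter on low counts that left 13353 genes for testing. Lewis lung carcinoma (LLC) is a lung cancer cell line of C57BL/6 mice. In the study, wild type C57BL/6 mice received subcutaneous LLC cells carrying red fluorescent protein (LLC-RFP), either alone or together with bone marrow-derived mesenchymal stem cells (BMSCs), and the fluorescent cells were sorted from the primary cancer sites by flow cytometry for RNA sequencing. The LLC-RFP label and the sort were shared by both groups. The labels give no age, and allograft experiments with LLC-luciferase cells in the same study used female mice of 6 weeks. Each group, called LLC alone and LLC with BMSCs below, held 3 libraries, with 33476347 to 46189113 counted fragments per library. The labels do not tell whether the libraries of a group came from separate mice, so that p-values measure only the spread between these libraries, which may be technical. LLC alone 3 stood apart from the other libraries in its balance of long and short transcripts, and calls that change without it are named with their values.

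Cell division is driven by cyclins bound to Cdk1 and by the Polo and Aurora kinases, which round the cell up, condense its chromosomes and build the spindle. Kinetochores, protein plates built on the centromere of each chromosome, catch spindle microtubules, and the spindle checkpoint holds separase in check until all of them are attached. The anaphase-promoting complex then releases separase, the sister chromatids part, and the cell is cut in 2 by a contractile ring. Most of these genes are transcribed late in the cell cycle, so that their summed RNA in a population is widely used as a gauge of proliferation. In a bulk library, a larger share of dividing cells and more RNA per dividing cell cannot be told apart.

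In LLC cells from tumours with BMSCs, 33 of the 46 mitotic genes (71.7%) were higher than in LLC alone, 1 was lower and 12 were not called, at an adjusted p under 0.05 in edgeR's quasi-likelihood test over all tested genes. The same call was made for 31.5% of all tested genes as higher and for 31.3% as lower. The largest rises were those of Cenpf, Cenpe, Aurkb, Mki67 and Espl1, which all rose at least 2-fold. Mad2l1 was the gene that fell. The median log2 fold change (LLC with BMSCs over LLC alone) of the 46 genes was 0.33, with a range from -0.23 to 1.26, and that of all tested genes was 0.01. The log2 fold change was above 0 in 41 of the 46 genes (50.9% of all tested genes) and at least 0.5 in 17 of them (20.0% of all tested genes). Of the largest rises, that of Aurkb (1.26) stayed above 1 log2 unit once a trend with transcript length was removed. Those of Cenpf (0.91), Cenpe (0.91), Mki67 (0.82) and Espl1 (0.82) fell below it.

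The summed level gives the same picture per library. FPKM is a level scaled by transcript length and by the depth of the library, so that genes of different length can be compared. The 46 genes together reached 2148, 2158 and 2139 FPKM in the 3 libraries of LLC alone. In LLC with BMSCs their sum was 2764, 2817 and 2825 FPKM, and the groups did not overlap. For single genes, all 3 libraries of LLC with BMSCs lay above all 3 of LLC alone in 37 of the 46 genes (37.0% of all tested genes) and below them in 2, Ndc80 and Mad2l1 (33.7% of all tested genes). The libraries of the groups overlapped in the remaining 7. Mesenchymal stromal markers differed between the same libraries, with 366 to 431 CPM (counts scaled to the size of the library) in sum in LLC alone and 824 to 869 CPM in LLC with BMSCs, and their part in these levels was not tested. A stricter rule asked for an adjusted p under 0.001 together with at least 1 log2 unit of change. Aurkb, Espl1, Cenpe and Cenpf passed it as higher (4 genes, against 6.81% of all tested genes) and 0 genes as lower (5.41% of all tested genes). Of these 4, Espl1 fell short of 1 without LLC alone 3 (0.91), and Espl1 (0.82), Cenpe (0.91) and Cenpf (0.91) did so once a trend with transcript length was removed. When any 1 library with BMSCs was left out, Espl1, Cenpe and Cenpf missed the adjusted p of 0.001. Their values ran from 0.0011 to 0.00425 in edgeR's quasi-likelihood test, and that of Aurkb was at most 9.37e-05.

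**Figure D1:**
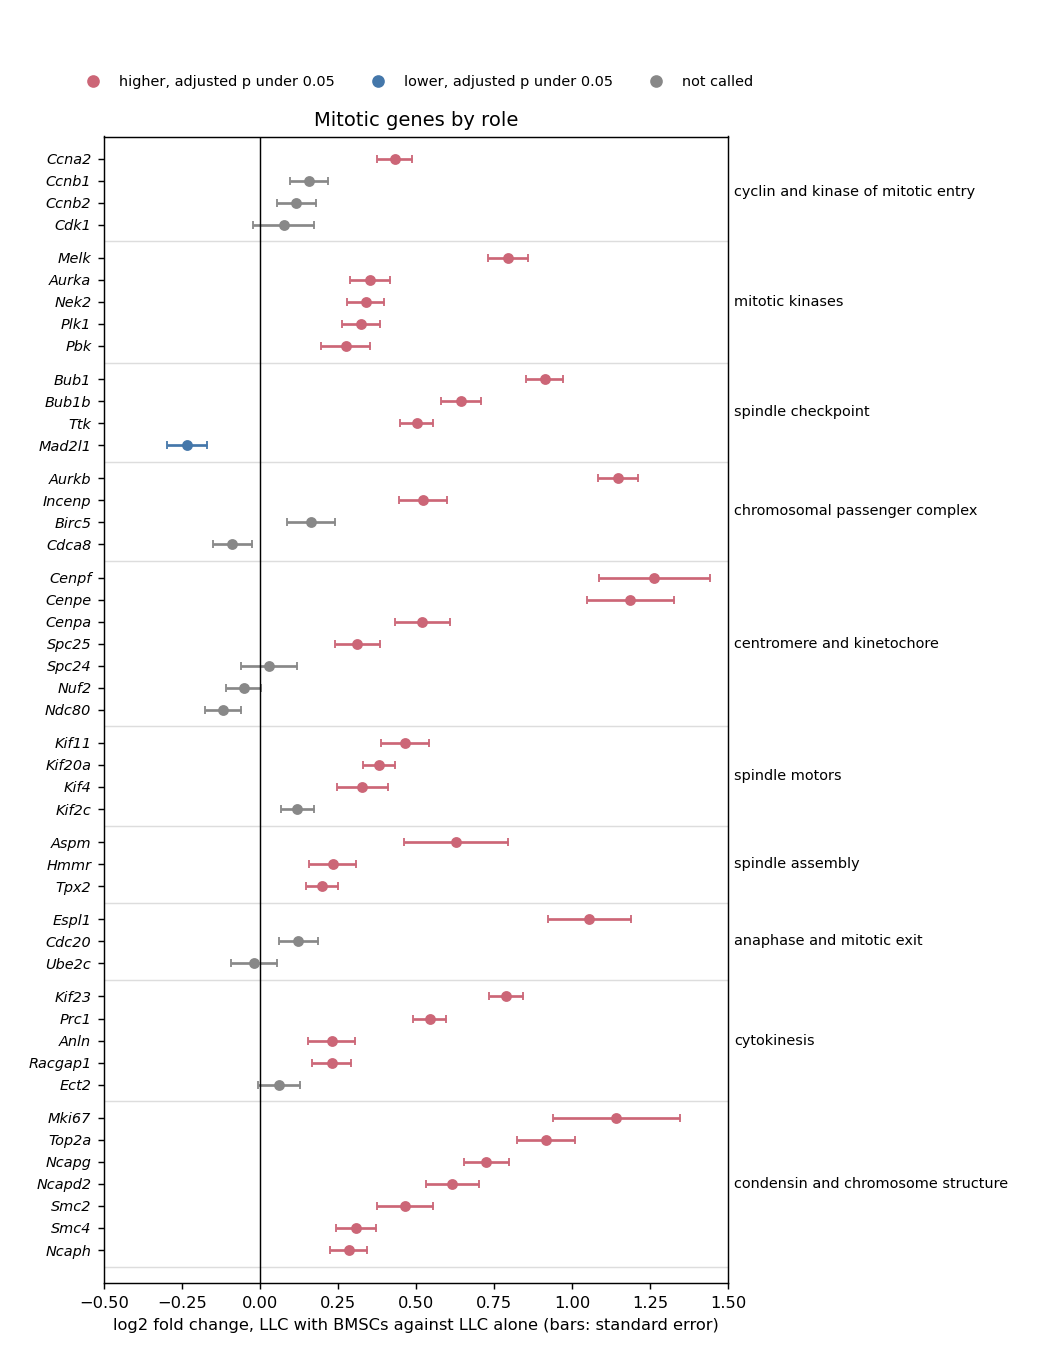
Log2 fold change of each of the 46 mitotic genes (horizontal axis, LLC with BMSCs against LLC alone, n = 3 libraries per group), grouped by role, with bars for the standard error. Red points passed an adjusted p under 0.05 as higher (33 genes), the blue point as lower (Mad2l1, -0.23), and grey points were not called (12 genes).

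Promoter sequence describes the genes on the list and does not depend on these libraries. Many late cell cycle genes carry a cell cycle genes homology region, TTTGAA or TTCGAA, to which MuvB-containing complexes bind, and often CCAAT, the binding sequence of NF-Y. RefSeq promoter windows on GRCm38.p6, from 250 bases before to 50 bases after the transcription start, were found for 38 of the 46 genes. TTTGAA or TTCGAA, searched on both strands, was present in 30 of the 38 windows (78.9%), against 21.7% of all windows and 16.4% of those of tested genes. CCAAT on either strand was present in 30 (78.9%), against 41.1% of all windows and 43.4% of those of tested genes. The homology region lay within 60 bases before to 50 bases after the start in 27 of the 38 (71.1%), against 4.67% of tested genes. Both elements occurred among risers and among genes not called or lower, in a larger share of the risers. TTTGAA or TTCGAA was found in 22 of 26 higher genes (84.6%) and in 8 of the 12 windows of genes not called or lower (66.7%). CCAAT was found in 23 (88.5%) and in 7 (58.3%) of the same windows. These differences were not tested. Among the 3083 windows of all genes called higher, 17.9% held TTTGAA or TTCGAA and 43.6% held CCAAT. In all tested genes the shares thus moved little with the call. A match is a run of letters and says nothing on whether a factor was bound there.

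TTTGAA together with CCAAT was present in 20 of 26 windows of higher genes (76.9%) and in 6 of 12 windows of genes not called or lower (50%). Windows of 4 genes that rose (Cenpf, Kif23, Bub1 and Espl1) and of 2 that were not called (Cdca8 and Cdc20) are printed as examples that hold a homology region and CCAAT. Each runs from 90 bases before the start through the first 30 transcribed bases, in the direction of the gene, and capitals mark the homology region (TTTGAA or TTCGAA) and CCAAT on either strand (CCAAT reads ATTGG on the other strand). On GRCm38.p6, Cenpf lies at chr1:189688057-189688176 (minus strand), Kif23 at chr9:61946770-61946889 (minus), Bub1 at chr2:127831830-127831949 (minus), Espl1 at chr15:102296203-102296322 (plus), Cdca8 at chr4:124936888-124937007 (minus) and Cdc20 at chr4:118437314-118437433 (minus).
Cenpf: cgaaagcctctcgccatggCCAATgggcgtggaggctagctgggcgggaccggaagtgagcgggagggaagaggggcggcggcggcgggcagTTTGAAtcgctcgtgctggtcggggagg
Kif23: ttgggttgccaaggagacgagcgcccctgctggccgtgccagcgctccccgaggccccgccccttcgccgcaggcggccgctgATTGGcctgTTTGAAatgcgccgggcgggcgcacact
Bub1: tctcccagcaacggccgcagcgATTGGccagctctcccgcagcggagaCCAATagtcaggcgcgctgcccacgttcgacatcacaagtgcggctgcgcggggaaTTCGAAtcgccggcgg
Espl1: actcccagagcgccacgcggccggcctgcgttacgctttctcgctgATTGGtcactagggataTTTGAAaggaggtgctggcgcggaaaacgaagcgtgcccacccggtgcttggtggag
Cdca8: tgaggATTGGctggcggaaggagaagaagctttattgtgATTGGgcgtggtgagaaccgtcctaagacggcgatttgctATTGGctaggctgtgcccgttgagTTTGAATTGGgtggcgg
Cdc20: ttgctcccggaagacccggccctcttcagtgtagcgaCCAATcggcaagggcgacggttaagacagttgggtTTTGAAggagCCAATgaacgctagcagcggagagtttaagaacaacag
The homology region begins at base 3 of the transcript in Cenpf and in Kif23, at base 15 in Bub1 and at base 14 in Cdca8, counted from 1 at the start. In Espl1 it begins 27 bases before the start and in Cdc20 18 bases before it. In Cdca8 the homology region overlaps an ATTGG.

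Of the genes of mitotic entry, 1 of 4 rose (25%, against 31.5% of all tested genes). Ccna2, the cyclin that acts in S phase and early mitosis, had 88.9, 85.3 and 91.1 FPKM in LLC alone and 119, 123 and 120.4 FPKM in LLC with BMSCs. The groups were well apart, and the log2 fold change was 0.43 (SE 0.055, adjusted p = 0.000336 by edgeR's quasi-likelihood test). The B-type cyclins, which bind Cdk1 to start mitosis, were not called.

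Ccnb1 was at 94.9, 94.1 and 97.0 FPKM in LLC alone and at 100.3, 113 and 110.3 FPKM in LLC with BMSCs. Its libraries did not overlap, but the log2 fold change of 0.16 (95% interval 0.01 to 0.30) had an adjusted p of 0.0563 in edgeR's quasi-likelihood test. The call of Ccnb1 depended on the setting. It was called higher in 5 other settings and not in 6. With 1 library left out it was called in 2 fits and not in 4. Those 2 were without LLC alone 3 (adjusted p = 0.0225) and without LLC with BMSCs 1 (adjusted p = 0.0219 by the same test). Ccnb2 was at 81.7, 76.2 and 85.5 FPKM in LLC alone against 87.6, 89.7 and 90.4 FPKM, a log2 fold change of 0.12 (-0.03 to 0.26). For Cdk1 itself, the kinase of mitotic entry, FPKM was 64.2, 62.5 and 76.8 in LLC alone and 65.9, 76.2 and 75.7 in LLC with BMSCs. The groups overlapped, and the interval of its log2 fold change, -0.15 to 0.30 around 0.08, leaves room for a change of either direction. Without LLC alone 3, which was the highest library of its group, the log2 fold change of Cdk1 was 0.18 and passed the threshold (adjusted p = 0.0388 by edgeR's quasi-likelihood test).

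All 5 of the other mitotic kinases rose, against 31.5% of all tested genes. Melk, a kinase of dividing cells, was at 17.5, 16.8 and 17.3 FPKM in LLC alone and at 28.3, 32.0 and 30.9 FPKM in LLC with BMSCs, without overlap. Its log2 fold change was 0.79 (SE 0.065, adjusted p = 3.39e-05 by edgeR's quasi-likelihood test). Aurka, the Aurora kinase of centrosomes and spindle poles, was the most abundant of the 5, with 41.0, 43.7 and 46.2 FPKM against 56.7, 57.9 and 55.2 FPKM. That was a log2 fold change of 0.35 (SE 0.065, adjusted p = 0.00205). Nek2, which acts on centrosome separation, rose by 0.34, Plk1, the Polo kinase, by 0.32 and Pbk by 0.27 on the log2 scale. In each of the 5 kinases the lowest library with BMSCs lay above the highest of LLC alone, as in 37.0% of all tested genes. The call of Pbk was lost when LLC alone 1, LLC alone 2, LLC with BMSCs 2 or LLC with BMSCs 3 was left out, with adjusted p from 0.0543 to 0.0689.

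In the spindle checkpoint, 3 of 4 genes rose (75%, against 31.5% of all tested genes) and 1 fell (25%, against 31.3%). Bub1, a kinase that gathers the checkpoint proteins at kinetochores, stood at 22.0, 22.5 and 20.5 FPKM in LLC alone and at 40.0, 42.7 and 41.5 FPKM in LLC with BMSCs. The lowest value with BMSCs was far above the highest without, and the log2 fold change was 0.91 (SE 0.059, adjusted p = 1.13e-05 by edgeR's quasi-likelihood test). Bub1b, which encodes BubR1 of the mitotic checkpoint complex, rose by 0.64, from a mean of 30.1 FPKM ± 2.16 (SD, n = 3) to 47.6 ± 0.154. Ttk, the kinase that starts checkpoint signalling, rose by 0.50, from 10.9 FPKM ± 0.118 to 15.7 ± 0.558.

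Mad2l1 encodes Mad2, which binds and blocks Cdc20. It was at 87.9, 92.0 and 101 FPKM in LLC alone and at 77.6, 83.6 and 83.5 FPKM in LLC with BMSCs. All libraries with BMSCs were lower than all without, the reverse of its partners. The log2 fold change was -0.23 (SE 0.064, adjusted p = 0.0137 by edgeR's quasi-likelihood test). LLC alone 1 and 2 were the closest libraries of their group, as were LLC with BMSCs 2 and 3. When the counts of each close pair were added together, which left 2 libraries per group, the adjusted p of Mad2l1 was 0.0828, and its call was lost.

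The chromosomal passenger complex has 4 subunits, and they did not move together. Aurkb, its kinase, which corrects faulty attachments and drives cytokinesis, was at 31.3, 29.9 and 31.9 FPKM in LLC alone and at 72.7, 70.0 and 66.4 FPKM in LLC with BMSCs. No library came near the other group, and the log2 fold change was 1.15 (SE 0.064, adjusted p = 5.12e-06 by edgeR's quasi-likelihood test). Incenp, the scaffold that activates Aurkb, rose by 0.52 (SE 0.077, adjusted p = 0.000684), from 51.4 FPKM ± 4.06 to 74.9 ± 4.25 (SD, n = 3).

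The remaining subunits, which place the complex on the chromosome, were not called in the main test. Birc5 (survivin) was at 94.6, 98.3 and 111 FPKM in LLC alone and at 105, 121 and 114 FPKM in LLC with BMSCs. Its groups overlapped, and the log2 fold change was 0.16 (95% interval -0.02 to 0.34). The call of Birc5 depended on the setting. With the length trend removed it was higher by 0.45 (adjusted p = 2.39e-05 by edgeR's quasi-likelihood test), beside 0.49 for Incenp and 0.08 for Cdca8. Without LLC alone 3, Birc5 was higher by 0.23 (adjusted p = 0.00759 by the same test). Cdca8 (borealin) was at 77.1, 77.0 and 84.4 FPKM against 75.3, 73.9 and 78.4 FPKM, with overlap and a log2 fold change of -0.09 (-0.24 to 0.06). The interval of Cdca8 lies wholly below the log2 fold changes of Aurkb and Incenp. As printed above, the Cdca8 promoter holds a homology region and several ATTGG near its start.

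**Figure D2:**
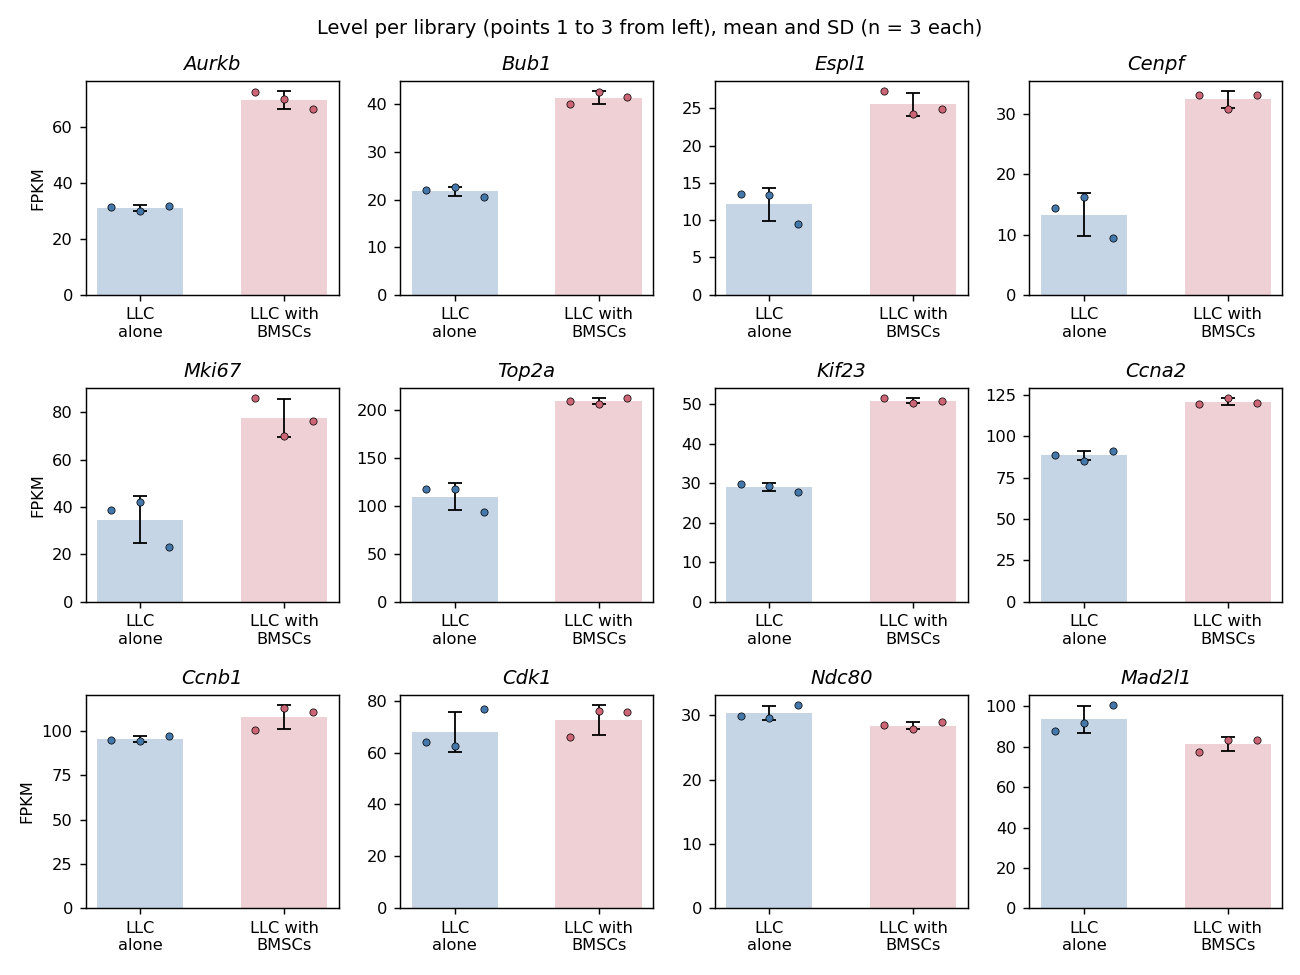
FPKM of 12 mitotic genes in each library (points, replicates 1 to 3 from left to right), with bars for the mean and error bars for the SD (n = 3 per group), on axes that start at 0. The points of Aurkb, Bub1, Espl1, Cenpf, Mki67, Top2a, Kif23 and Ccna2 with BMSCs all lie above those of LLC alone, those of Cdk1 overlap, and those of Mad2l1 lie below.

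At the centromere and kinetochore, 4 of 7 genes rose (57.1%, against 31.5% of all tested genes). Cenpf, a large protein of the outer kinetochore and nuclear matrix, was at 14.5, 16.2 and 9.36 FPKM in LLC alone and at 33.2, 30.9 and 33.3 FPKM in LLC with BMSCs. The highest library of LLC alone was far below the lowest with BMSCs. The log2 fold change was 1.26 (SE 0.18, adjusted p = 0.000548 by edgeR's quasi-likelihood test), the largest of the 46 genes, and 1.07 without LLC alone 3. Cenpe, a kinesin that moves chromosomes to the spindle equator, rose by 1.19 (SE 0.14, adjusted p = 0.000221), from 15.8, 17.5 and 11.5 FPKM to 34.2, 32.9 and 36.2 FPKM, and by 1.04 without LLC alone 3.

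Cenpa encodes the histone variant that marks centromeres, and was the most abundant gene of this role. It was at 80.7, 81.2 and 97.7 FPKM in LLC alone and at 121, 131 and 127 FPKM in LLC with BMSCs, without overlap. Its log2 fold change was 0.52 (SE 0.087, adjusted p = 0.00131 by edgeR's quasi-likelihood test).

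The Ndc80 complex, the microtubule clamp of the kinetochore, has the subunits Ndc80, Nuf2, Spc24 and Spc25. Of these 4, 1 was called, as higher (31.5% of all tested genes were). Spc25 rose by 0.31 on the log2 scale (SE 0.072, adjusted p = 0.00624 by edgeR's quasi-likelihood test), from 22.6, 24.7 and 25.3 FPKM to 28.6, 32.8 and 30.9 FPKM. Its direct partner Spc24 was at 18.9, 19.2 and 23.2 FPKM in LLC alone and at 20.4, 21.4 and 21.6 FPKM in LLC with BMSCs, with a log2 fold change of 0.03 (95% interval -0.18 to 0.24). Those groups overlapped.

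Nuf2 was at 33.3, 31.3 and 33.9 FPKM in LLC alone and 31.5, 32.2 and 32.8 FPKM in LLC with BMSCs, also with overlap (log2 fold change -0.05, interval -0.18 to 0.08). Ndc80 was at 29.9, 29.6 and 31.6 FPKM in LLC alone and 28.5, 27.8 and 28.9 FPKM in LLC with BMSCs. Its libraries did not overlap, and the log2 fold change was -0.12 (-0.25 to 0.02), with an adjusted p of 0.109 in edgeR's quasi-likelihood test.

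Of the spindle motors, 3 of 4 kinesins rose (75%, against 31.5% of all tested genes). Kif11 (Eg5), which pushes the spindle poles apart, was at 28.4, 27.5 and 23.7 FPKM in LLC alone and at 36.0, 37.2 and 38.1 FPKM in LLC with BMSCs. The groups did not overlap, and the log2 fold change was 0.46 (SE 0.076, adjusted p = 0.00117 by edgeR's quasi-likelihood test). Kif20a, a kinesin of the central spindle, was the most abundant at 34.2, 33.3 and 33.03 FPKM against 44.6, 43.8 and 44.5 FPKM, and rose by 0.38 (SE 0.052, adjusted p = 0.000448). Kif4, which works with Prc1 on the midzone, rose by 0.33. Kif2c (MCAK), a kinesin that takes microtubules apart at the centromere, was at 25.7, 25.9 and 25.9 FPKM in LLC alone and at 28.1, 28.6 and 28.8 FPKM in LLC with BMSCs. Its libraries did not overlap, but the adjusted p of its log2 fold change of 0.12 was 0.0741. Kif2c was called higher in 5 other settings and not in 6.

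All 3 genes of spindle assembly rose, against 31.5% of all tested genes. Aspm, a protein of the spindle poles, had 16.4, 16.8 and 10.3 FPKM in LLC alone and 22.9, 22.4 and 22.9 FPKM in LLC with BMSCs. LLC alone 3 was the low library, and the log2 fold change was 0.63 (SE 0.17, adjusted p = 0.0119 by edgeR's quasi-likelihood test) with it and 0.44 without it. Tpx2, which activates Aurka on the spindle, had the highest level of the 3, with 53.7, 53.4 and 51.6 FPKM against 61.3, 61.5 and 61.9 FPKM. The libraries within each group of Tpx2 were close together, and its log2 fold change was 0.20 (SE 0.051, adjusted p = 0.0101). Its call was lost with the length trend removed (0.09, adjusted p = 0.0679) and with close pairs summed (adjusted p = 0.134). Hmmr, which binds microtubules and Tpx2, rose by 0.23, a call lost when LLC alone 2, LLC with BMSCs 2 or LLC with BMSCs 3 was left out (adjusted p from 0.0576 to 0.103).

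Of the genes of anaphase and mitotic exit, 1 of 3 rose (33.3%, against 31.5% of all tested genes). Espl1, which encodes separase, the protease that opens the cohesin ring, was at 13.5, 13.3 and 9.52 FPKM in LLC alone and at 27.3, 24.3 and 24.9 FPKM in LLC with BMSCs. The groups lay far apart, and the log2 fold change was 1.06 (SE 0.13, adjusted p = 0.000315 by edgeR's quasi-likelihood test), and 0.91 without LLC alone 3.

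The other two genes act with the anaphase-promoting complex, upstream of separase. Cdc20, its activator, was at 83.4, 88.3 and 89.9 FPKM in LLC alone and at 90.7, 100.04 and 98.2 FPKM in LLC with BMSCs. Its libraries did not overlap, and the log2 fold change of 0.12 (95% interval -0.02 to 0.27) was not called. Ube2c, the ubiquitin-conjugating enzyme of that complex, was at 133, 126 and 147 FPKM against 140.4, 140.8 and 132 FPKM. The groups overlapped, and the log2 fold change was -0.02 (-0.19 to 0.15).

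In cytokinesis, 4 of 5 genes rose (80%, against 31.5% of all tested genes). Kif23, the kinesin of the centralspindlin complex, was at 29.8, 29.3 and 27.9 FPKM in LLC alone and at 51.5, 50.3 and 50.8 FPKM in LLC with BMSCs, a log2 fold change of 0.79 (SE 0.055, adjusted p = 1.53e-05 by edgeR's quasi-likelihood test). Its libraries within a group were close together and the groups far apart. Racgap1, the other subunit of centralspindlin, rose less, by 0.23 (SE 0.063, adjusted p = 0.0135), from 78.6, 81.3 and 72.3 FPKM to 94.3, 90.5 and 90.8 FPKM. Prc1, which bundles the microtubules of the midzone, rose by 0.54 and Anln (anillin), a scaffold of the contractile ring, by 0.23. The call of Anln was lost when LLC alone 1 or any 1 library with BMSCs was left out (adjusted p from 0.0511 to 0.0749).

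Ect2, the exchange factor that centralspindlin recruits to switch on RhoA at the cell equator, was at 38.5, 39.1 and 34.3 FPKM in LLC alone and at 37.9, 40.3 and 40.1 FPKM in LLC with BMSCs. The groups overlapped, and the log2 fold change was 0.06 (95% interval -0.10 to 0.22).

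All 7 genes of condensin and chromosome structure rose, against 31.5% of all tested genes. This was the largest role in which every gene was called. With all tested genes split into 5 equal groups from shortest to longest, these 7 fell in groups 3 to 5. Of all genes in those groups, 33.7%, 39.1% and 45.6% were called higher. Mki67 encodes Ki-67, the coat of mitotic chromosomes and the standard stain for dividing cells. It was at 38.6, 42.1 and 23.2 FPKM in LLC alone and at 86.0, 70.1 and 76.3 FPKM in LLC with BMSCs. LLC alone 3 was low, yet all libraries of LLC alone lay under all with BMSCs, and the log2 fold change was 1.14 (SE 0.20, adjusted p = 0.00176 by edgeR's quasi-likelihood test), or 0.93 without that library. Top2a, the topoisomerase that untangles sister chromatids, was at 118, 117 and 93.4 FPKM in LLC alone and at 209.6, 207 and 212 FPKM in LLC with BMSCs, and rose by 0.92 (SE 0.092, adjusted p = 9.80e-05). No other gene of the 46 exceeded it in level in LLC with BMSCs.

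Condensin I, the ring that compacts mitotic chromosomes, was covered by 5 genes. Its non-SMC subunits Ncapg, Ncapd2 and Ncaph rose by 0.72 (SE 0.072), 0.62 (SE 0.086) and 0.28 (SE 0.059) on the log2 scale. Its SMC subunits Smc2 and Smc4, which condensin I shares with condensin II, rose by 0.47 (SE 0.09) and 0.31 (SE 0.064). The adjusted p of these 5 genes ran from 9.54e-05 to 0.00386 in edgeR's quasi-likelihood test.

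In some pairs of mitotic genes, a few of them subunits of the same complex, the balance of the partners differed between the groups. A ratio of FPKM within a library shows this without reference to the other libraries. The pairs given here were chosen after their values were seen, so that the ratios are a description with no test. Paired genes differ in length, and the ratios were not corrected for the trend with transcript length. Aurkb over Cdca8 was 0.406, 0.388 and 0.378 in LLC alone and 0.965, 0.948 and 0.847 in LLC with BMSCs, and was thus well under 1 without BMSCs and close to 1 with them. Bub1 over Mad2l1 was 0.250, 0.245 and 0.204 against 0.516, 0.511 and 0.498.

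Smaller shifts were seen in pairs of the Ndc80 complex, of the cyclins and of cytokinesis. Spc25 over Ndc80 was 0.795 ± 0.0393 (SD, n = 3) in LLC alone and 1.08 ± 0.0893 in LLC with BMSCs. Ccna2 over Ccnb1 was 0.928 ± 0.0178 against 1.12 ± 0.0575, and Kif23 over Ect2 was 0.778 ± 0.0326 against 1.29 ± 0.0602. In all these pairs the libraries of the groups did not overlap.

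**Figure D3:**
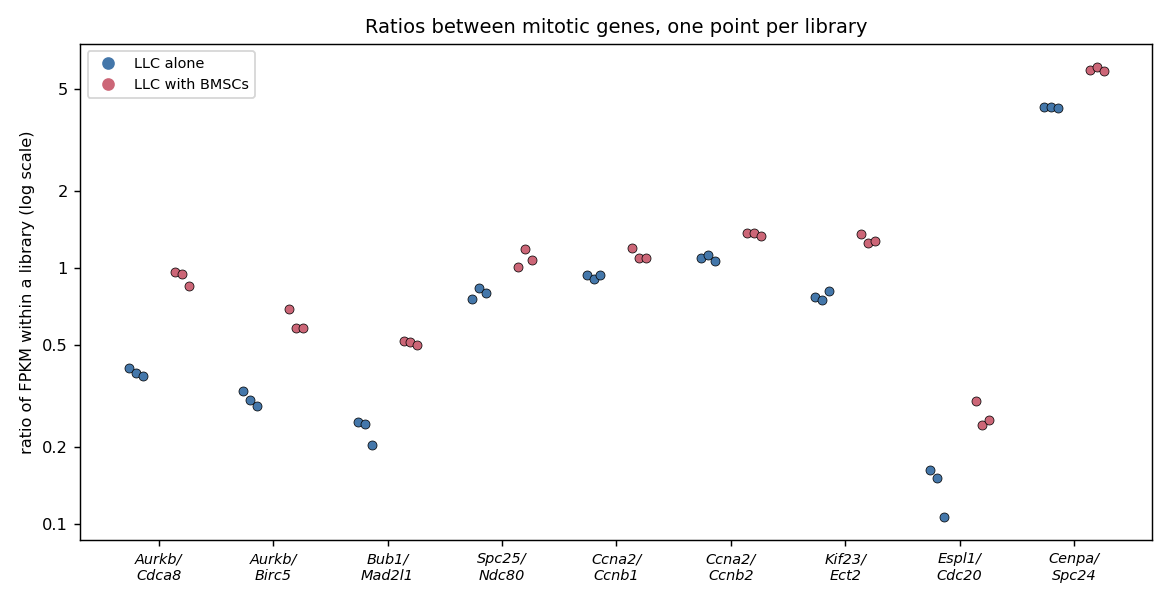
Ratio of the FPKM of 2 mitotic genes within each library (log scale), 1 point per library, for 9 pairs chosen after their values were seen, in LLC alone (blue) and LLC with BMSCs (red). In each pair the 3 red points lie above the 3 blue points, from the widest gap for Aurkb over Cdca8 (mean 0.391 against 0.92) to narrow ones such as Ccna2 over Ccnb1 (0.928 against 1.12).

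Transcript length moved with the fold changes, in these genes and in all others. Over the 46 genes, the log2 fold change and the log2 length had a Pearson's r of 0.61 and a Spearman's rho of 0.58, a description across genes, which are not independent replicates. When all tested genes were split into 5 equal groups by length, their median log2 fold change ran from -0.28 in the shortest group through -0.10, 0.04 and 0.10 to 0.26 in the longest. The mitotic genes in the same groups had medians of 0.14, 0.16, 0.39, 0.35 and 0.92, and 41 of the 46 exceeded the median of their own length group. In the longest group, 9 of 9 mitotic genes rose, against 45.6% of all genes of that length. In the shortest, 2 of 6 rose, against 14.5%.

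LLC alone 3 was the library with the strongest such imbalance. Relative to the average of all 6 libraries, the median gene of the shortest group was 0.31 log2 units higher there and that of the longest group at -0.37. LLC alone 1 and 2 were at 0.062 and 0.037 for the shortest genes and at -0.022 and -0.0033 for the longest. The libraries of LLC with BMSCs ran from -0.19 to -0.091 for the shortest genes and from 0.10 to 0.18 for the longest. The groups thus differed in this balance also without LLC alone 3. Long mitotic genes such as Cenpf, Mki67 and Aspm had their lowest level in LLC alone 3. Without it, 40 of the 46 genes were called higher, against 35.0% of all genes tested then. The 7 added were Cdk1, Ccnb1, Ccnb2, Birc5, Cdc20, Spc24 and Kif2c, and none of the 33 was lost. Their log2 fold changes without that library were 0.18 for Cdk1 and Ccnb1, 0.16 for Ccnb2, 0.23 for Birc5, 0.15 for Cdc20, 0.14 for Spc24 and 0.13 for Kif2c, with adjusted p from 0.00759 to 0.0388 in edgeR's quasi-likelihood test.

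When a smooth trend with length was taken out of each library, 38 of the 46 genes were called higher, against 35.6% of all tested genes, and their median log2 fold change was 0.32. The rises of the longest genes were smaller on that scale, 0.91 for Cenpf and 0.82 for Mki67, and that of Aurkb, a short gene, was 1.26. Among short genes, Birc5 came to 0.45, Ccnb2 to 0.30, Ube2c to 0.29, Cdc20 to 0.26 and Spc24 to 0.25, all past the threshold, as were Ccnb1 (0.22) and Kif2c (0.12). Anln (0.03) and Tpx2 (0.09) were no longer called. Mad2l1 remained lower (-0.17, adjusted p = 0.00615 by edgeR's quasi-likelihood test), and Cdk1, Cdca8, Ndc80, Nuf2 and Ect2 were not called with or without the trend.

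**Figure D4:**
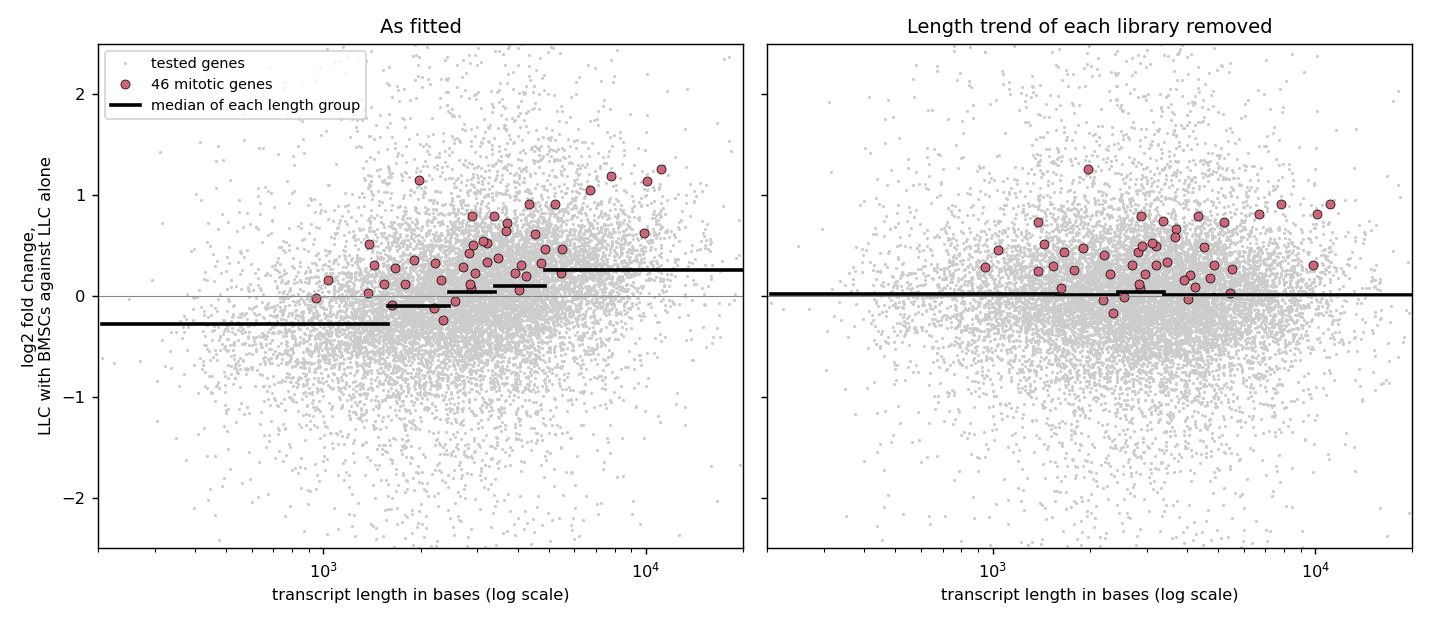
Log2 fold change (LLC with BMSCs against LLC alone) against transcript length in bases (log scale) for the tested genes (grey) and the 46 mitotic genes (red), as fitted (left) and after a length trend was removed from each library (right), with genes beyond the range of the axes not shown. Black lines, the medians of 5 length groups, climb from -0.28 to 0.26 on the left and lie between 0.011 and 0.039 on the right, and most red points lie above them in both.

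The level of a gene was split among its transcripts in the files. Of the 46 genes, 24 had 1 transcript and 22 had several, of which 13 had a transcript with over 80% of the level in LLC alone. Transcripts were compared by value only, with no test. Bub1 was listed with NM_001113179, at a mean of 10.1 FPKM in LLC alone and 20.3 in LLC with BMSCs, and NM_009772, at 11.6 and 21.1 FPKM. The share of the first was 46.8% and 48.9%, so that the balance hardly moved. Melk shifted more, its curated transcript NM_010790 holding 78.2% of its level in LLC alone and 71.5% in LLC with BMSCs, with the rest in a transcript that the authors' pipeline assembled.

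A further 135 mitotic genes outside the 46, taken from a list of kinetochore, cohesin, centrosome, motor and anaphase-promoting complex genes, were also more often higher than lower. Of these, 73 were higher and 18 lower (31.5% and 31.3% of all tested genes), and their median log2 fold change was 0.28. All 8 tested genes of cytokinesis in that list were higher, as were 3 of 3 subunits particular to condensin II, 9 of 12 centrosome and centriole genes and 20 of 29 motors and spindle proteins. Kif24 (log2 fold change 1.37), Kif14 (1.31) and Cenpl (1.29), the last a protein of the inner kinetochore, had the largest rises. Cenpl went from 5.90, 6.01 and 5.96 FPKM in LLC alone to 12.5, 14.1 and 14.5 FPKM in LLC with BMSCs.

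Other kinetochore proteins and other genes of the anaphase-promoting complex were called about as often as all tested genes, 31.5% of which were higher and 31.3% lower. Of 26 other tested kinetochore proteins, 10 were higher (38.5%) and 7 lower (26.9%), with a median of -0.07, and of 0.09 with the length trend removed. Of 18 subunits and regulators of the anaphase-promoting complex, 4 were higher (22.2%) and 6 lower (33.3%). Their median was -0.01, with and without the length trend. The largest falls, not corrected for length, were those of the small complex subunits Anapc13 (-0.89, SE 0.11) and Anapc16 (-0.62, SE 0.10), and of Ensa (-0.75, SE 0.061). Ensa encodes an inhibitor of the phosphatase that opposes Cdk1.

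Genes of DNA replication are transcribed earlier in the cell cycle. Of 41 tested, 1 rose (2.44%, against 31.5% of all tested genes) and 21 fell (51.2%, against 31.3%), and their median was -0.17 on the log2 scale. With the length trend removed, 8 were higher and 23 lower, and without LLC alone 3, 4 were higher and 22 lower. The gene that rose was Fen1, the flap nuclease (0.24, SE 0.058, adjusted p = 0.00813 by edgeR's quasi-likelihood test). Cdt1, which loads the replicative helicase, fell by 0.98 on the log2 scale, from 90.8, 93.2 and 94.4 FPKM to 51.6, 47.2 and 43.9 FPKM, and Mcm2, a subunit of that helicase, fell by 0.81. In LLC with BMSCs, mitotic RNA was thus higher while replication RNA was mostly lower or not called. TTTGAA or TTCGAA was present in 18.8% of the promoter windows of the replication genes, and in 43.9% of those of the further mitotic genes.

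**Figure D5:**
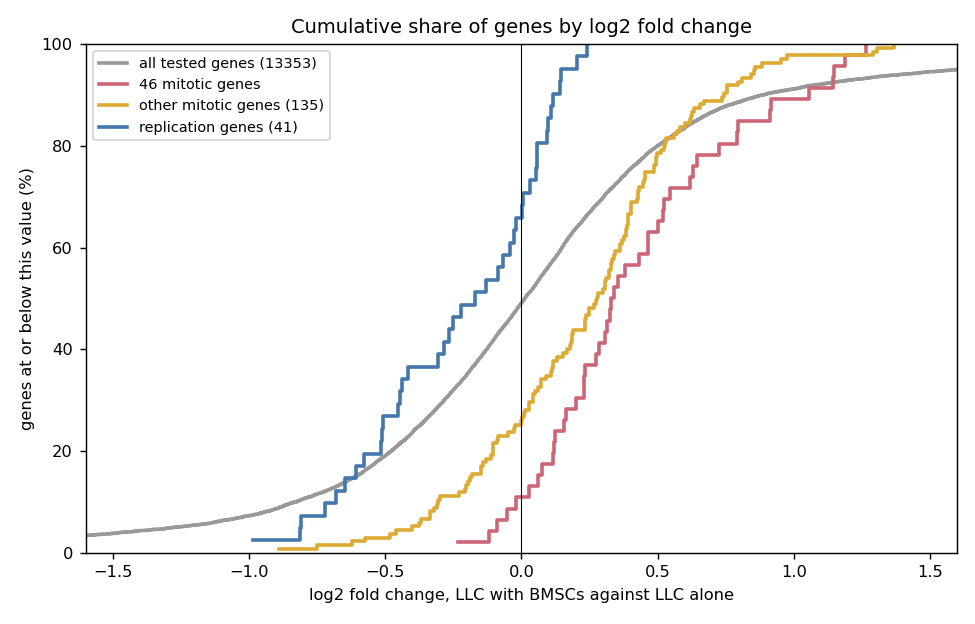
Cumulative share of genes (vertical axis, %) at or below a given log2 fold change (horizontal axis, LLC with BMSCs against LLC alone) for all 13353 tested genes (grey), the 46 mitotic genes (red), 135 other mitotic genes (yellow) and 41 replication genes (blue). The red curve lies right of the grey one up to a log2 fold change of about 1, with medians of 0.33 and 0.01, and the blue one lies left of it over most of the range, with a median of -0.17.

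Transcription factors and pocket proteins that act on mitotic promoters were called about as often as all tested genes (31.5% higher and 31.3% lower), with 9 of 23 higher (39.1%) and 6 lower (26.1%). Mybl2 (B-Myb), which joins MuvB to turn on mitotic genes, was at 35.8, 37.3 and 33.4 FPKM in LLC alone and at 64.7, 57.6 and 55.6 FPKM in LLC with BMSCs. Its log2 fold change was 0.72 (SE 0.078, adjusted p = 0.000144 by edgeR's quasi-likelihood test). E2f8 (0.74), E2f7 (0.62), E2f5 (0.53) and E2f4 (0.53), E2F family members known mainly as repressors, were higher too. Foxm1, the forkhead factor of mitotic genes, was higher by 0.24 (adjusted p = 0.0346). Nfyc, a subunit of the CCAAT-binding NF-Y, was lower (-0.66). Lin37, a MuvB subunit, was lower too (-0.51), but its value with the length trend removed was -0.21 and its call was lost (adjusted p = 0.0749).

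Of 9 tested inhibitors of cyclin-dependent kinases and arrest genes, 4 were higher (44.4%) and 3 lower (33.3%), beside 31.5% and 31.3% of all tested genes. Cdkn1a was at 13.4, 13.6 and 15.0 FPKM in LLC alone and at 38.2, 36.0 and 34.9 FPKM in LLC with BMSCs, a log2 fold change of 1.35 (SE 0.071, adjusted p = 3.95e-06 by edgeR's quasi-likelihood test). Cdkn2c was higher by 0.51 (SE 0.073). Cdkn2a was listed with 0 counts in all 3 libraries of LLC alone and with 39, 31 and 35 counts in LLC with BMSCs, which is at least 10.8-fold higher against a floor of 3 counts per library. Cdkn1b was lower by 0.57 on the log2 scale (SE 0.06), and the DNA damage response genes Gadd45a and Gadd45g fell by 2.69 (SE 0.10) and 2.11 (SE 0.11).

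Genes listed as markers of other cell types also differed between the sorted libraries. Of 13 mesenchymal stromal markers, 11 were tested and all 11 were higher with BMSCs, and 9 of the 13 reached 1 FPKM in some library. All 6 tested neutrophil markers were higher, at 0.065 to 0.299 CPM in sum against 20.6 to 23.4 CPM, and Retnlg was at 0 in all libraries. Macrophage markers (5 higher and 1 lower of 7 tested) came to 24.2 to 28.8 against 30.8 to 33.6 CPM and erythroid markers (3 higher and 1 lower of 5) to 8.56 to 8.98 against 11.2 to 12.1 CPM. None of the 2 tested endothelial markers was called (1.04 to 1.25 against 1.35 to 1.75 CPM), and no lymphocyte marker had enough counts to be tested (0.346 to 0.390 against 0.227 to 0.382 CPM), with Cd3d, Ms4a1 and Ncr1 at 0. The 46 mitotic genes summed to 6016 to 6650 CPM in LLC alone and 9136 to 9327 CPM in LLC with BMSCs. Whether these marker transcripts came from other cells or from the LLC cells was not tested, nor was the part of other cells in the mitotic RNA. Of 9 lung and epithelial markers, 2 were tested, Krt8 and Krt18, and both were higher, with 157 to 177 CPM in sum in LLC alone and 189 to 198 CPM in LLC with BMSCs. Krt8 was the 1 that reached 1 FPKM in any library, so that defining markers of lung epithelium such as Nkx2-1 and Sftpc, and of epithelia such as Epcam and Cdh1, were near 0 in cells labelled as lung carcinoma.

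Several members share sequence with a neighbour. In GENCODE M21, exons of 8 of the 46 genes overlap exons of another protein-coding gene on the opposite strand, namely Ccna2 (Exosc9), Cdc20 (Elovl1), Cdca8 (9930104L06Rik), Kif20a (Cdc23), Kif4 (Pdzd11), Ncapg (Lcorl), Prc1 (Rccd1) and Ube2c (Tnnc2). Whether the counting used strand is not given in the sources used here, so that reads in these overlaps may have gone to either gene.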

How the data were processed

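RNA was sequenced from sorted LLC-RFP cells of 2 groups, 3 libraries each. The study describes poly-A selection and library preparation by a sequencing service, while the labels name Illumina protocols. For each gene and transcript the authors deposited estimated counts, not normalized and 21.9% to 23.2% of them not whole, and FPKM values scaled by transcript length and library total. A few abundant genes can shift all other FPKM values. The submitters' processing notes name HISAT, StringTie, Cufflinks and GATK and the build mm8, without roles. The deposited files give genes by NCBI identifiers and no coordinates.

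Estimated counts were rounded and tested with edgeR 4.0.16 in R 4.3.3 (TMM, default filter on low counts, quasi-likelihood test, Benjamini-Hochberg adjustment over all tested genes, threshold 0.05). A standard error is the size of the log2 fold change over the square root of the F statistic, and 95% intervals use it. The biological coefficient of variation was 9.92%. The intervals and the floor of 3 counts cover these libraries only, and the floor counting error only. Levels are FPKM. The length trend of each library was removed as a smooth offset (span 0.3). The fits were tested on simulated data, which held no trend with transcript length and no close pairs of libraries. Alternatives were DESeq2 1.42.0, library sizes without TMM, upper-quartile scaling, 2 other filters on low counts, limma 3.58.1 on log2(FPKM + 1) and log2(FPKM + 0.1) for genes of at least 1 FPKM, a replicate block, each library left out, and a stricter threshold. Summing close pairs of libraries was chosen after seeing the data.

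The 46 genes and all other lists were chosen with earlier results of these data known. Values in every library are given for the genes with the largest change and the highest level in each role, and for each gene not called or called lower. Outside the 46, the 3 largest rises and 3 largest falls of other mitotic genes, regulators and inhibitors changed by at least 0.5 on the log2 scale, and the 2 largest changes each way of replication genes are named. Cenpe, Spc25, Bub1b, Ttk, Incenp, Foxm1 and the transcripts of Melk and Bub1 were given values after these had been seen. Promoter windows are from RefSeq (GRCm38.p6), and 35 of 38 were found to end in a transcript of GENCODE M21 in sense. No windows were used for Aurkb, Ccna2, Incenp, Kif20a, Pbk, Smc4, Spc24 and Tpx2. A series-wide FPKM table was not used here.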

Additional observations from a re-analysis of the deposited data

How the results depend on the processing

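The count of higher mitotic genes ran from 26 to 40 of 46 over the alternatives other than the stricter threshold, and the median log2 fold change from 0.31 to 0.36. Of the 33 genes called higher, 26 stayed called in all 17 alternatives run for single genes and 0 of 33 changed direction. With 1 library left out the count was 30 to 40, the highest without LLC alone 3, and 1 gene was called lower each time. With close pairs summed, 26 genes were higher (24.3% of all genes tested) and 0 lower, with Pbk, Hmmr, Anln, Tpx2, Spc25, Smc4, Racgap1 and Mad2l1 no longer called. The distance between replicates was uneven, with a mean chi-square per gene of 4.69 between LLC alone 1 and 2 and 2.98 between LLC with BMSCs 2 and 3, and of 18.9 to 59.3 in the other pairs within a group. Under the stricter threshold, 4 of the 46 were higher and 0 lower, of the other mitotic genes 3 higher and 0 lower, and of the replication genes 0 higher and 0 lower.

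The number of replication genes called higher was 3 without TMM, 2 with limma at either pseudocount, 8 with the length trend removed (also with the block), 0 with close pairs summed, and 1 to 4 with 1 library left out, the highest without LLC alone 3. The cause of these differences was not tested. Log2 fold changes near 0 changed sign in 5 genes that were not called. Cdk1 was at -0.0067 with close pairs summed. Cdca8 was at 0.080 with the length trend removed and 0.079 with the block as well, and Ect2 at -0.026 and -0.027. Ube2c was at 0.0015 without TMM, 0.023 with limma at either pseudocount, 0.29 with the length trend removed, with and without the block, and from -0.070 to 0.049 with 1 library left out, above 0 without LLC alone 3 (0.049) or LLC with BMSCs 3 (0.016). Spc24 was at -0.0024 with upper-quartile scaling, -0.032 with close pairs summed, and from -0.027 to 0.14 with 1 library left out, below 0 without LLC alone 1 (-0.027) or 2 (-0.018).

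Libraries with the same replicate number did not deviate together (Pearson's r over genes of 0.076, -0.11 and 0.057 for the 3 pairs), so the numbers were not taken to pair them. With the replicate block, 33 mitotic genes were higher and 1 lower, with a median log2 fold change of 0.34, 74 and 17 of the other mitotic genes, and 1 and 20 of the replication genes. With the block and the length trend removed, 38 were higher. The calls lost when a single library was left out were those of Anln, Hmmr and Pbk, with log2 fold changes of 0.23, 0.23 and 0.27. Those of Cdk1, Ccnb1, Ccnb2, Birc5, Cdc20, Spc24 and Kif2c were gained without LLC alone 3. That of Ccnb1 was also gained without LLC with BMSCs 1 (0.20, adjusted p = 0.0219 by edgeR's quasi-likelihood test). Ccnb1 and Kif2c were called as well without TMM, with limma at either pseudocount, and with the length trend removed, with and without the block.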
